A study of Mus musculus with 9 samples.

Results

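The Notch genes described here are 4 receptors (Notch1, Notch2, Notch3 and Notch4), 4 ligands of the Jagged and Delta-like families (Jag1, Jag2, Dll1 and Dll4) and 2 target genes (Hes1 and Hey1). They were taken by symbol: every probe set that the platform annotation assigns to exactly 1 of these 10 genes was used, which gave 21 of the 36701 probe sets that are not controls, and 10 of the 15964 genes with such a probe set. The RNA came from 3 mouse stromal cell lines. OP9, established from newborn calvaria, and AGM-s3-A9, from the aorta-gonad-mesonephros (AGM) region of the embryo, support hematopoiesis in co-culture. AGM-s3-A7, also from the AGM region, does not. The labels give no treatment, genotype or passage, and they describe no separate cultures of a line. Each line was hybridised to 1 array of each type (MG-U74A, MG-U74B, MG-U74C), 9 arrays in all, and a probe set is present on 1 type only.

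Notch receptors are transmembrane proteins that bind Jagged and Delta-like ligands on a neighbouring cell. Binding exposes the receptor to cleavage by ADAM proteases and then by gamma-secretase, and the freed intracellular part joins the DNA-binding protein RBPJ and a Mastermind co-activator to switch on targets such as the transcriptional repressors Hes1 and Hey1. In the AGM region Notch signalling is known for its part in the emergence of hematopoietic stem cells, and OP9 cells engineered to carry a Delta-like ligand are widely used to grow T cells.

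With 1 array for each line and type there are no replicates, so no SD or p-value is given and the number of arrays limits the precision. Values are quantile-normalized intensities within an array type. A value counts as measured when it lies above a detection level, which is the higher of the array type's median and the 95th percentile of 34 control probe sets without a target: 49.0 for MG-U74A, 52.8 for MG-U74B, 61.6 for MG-U74C. Values at or below it were set to it before ratios were taken, so a fold against such a value is a lower bound. As a guide to error, 2 probe sets of 1 gene on 1 array type gave log2 ratios with a robust SD of 0.31 for OP9 over AGM-s3-A7 (1134 genes), 0.30 for AGM-s3-A9 over AGM-s3-A7 (1160 genes) and 0.32 for OP9 over AGM-s3-A9 (1128 genes). This SD does not cover differences between cultures. Of 10 stromal markers, 8 were above the level in OP9, 9 in AGM-s3-A9 and 9 in AGM-s3-A7, among them the collagen genes Col1a1 and Col1a2 in all lines. The probe set of Vim, which encodes the mesenchymal filament protein vimentin, was below the level in every line (22.9 in OP9, 21.7 in AGM-s3-A9 and 17.9 in AGM-s3-A7), so a reading below it does not show that a transcript is absent. All 10 endothelial markers were below the level in every line, with summed intensities of 65.2 in OP9, 89.4 in AGM-s3-A9 and 76.0 in AGM-s3-A7. Of 10 hematopoietic markers, 1 (Laptm5) was above it, in AGM-s3-A9 and AGM-s3-A7, and Ptprc, which encodes the pan-leukocyte antigen CD45, was below it in all lines. In RNA from a whole culture, fewer cells that express a gene cannot be told apart from less RNA per cell.

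Of the 21 member probe sets, 7 exceeded the detection level in at least 1 line and 14 in none. The 7 belong to Notch1, Notch2, Notch3, Jag1 and Hes1. Notch1, Notch3, Jag1 and Hes1 were each at least 2-fold higher in OP9 than AGM-s3-A7 on 1 probe set, for Notch1 as a lower bound. A second Jag1 probe set gave a bound of 1.41-fold. That is 4 of 7 member probe sets measured in the pair, against 4.77% of 13467 over the arrays, a description only. The same 4 genes were 1.44-fold to 1.87-fold higher in AGM-s3-A9 than AGM-s3-A7, where the value of Notch1 is a lower bound. The measured ratios of Notch3, Jag1 and Hes1 in that pair were below 2-fold. Notch2 went the other way, with its highest values in AGM-s3-A7. No probe set of Notch4, Jag2, Dll1, Dll4 or Hey1 rose above the level in any line.

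**Figure D1:**
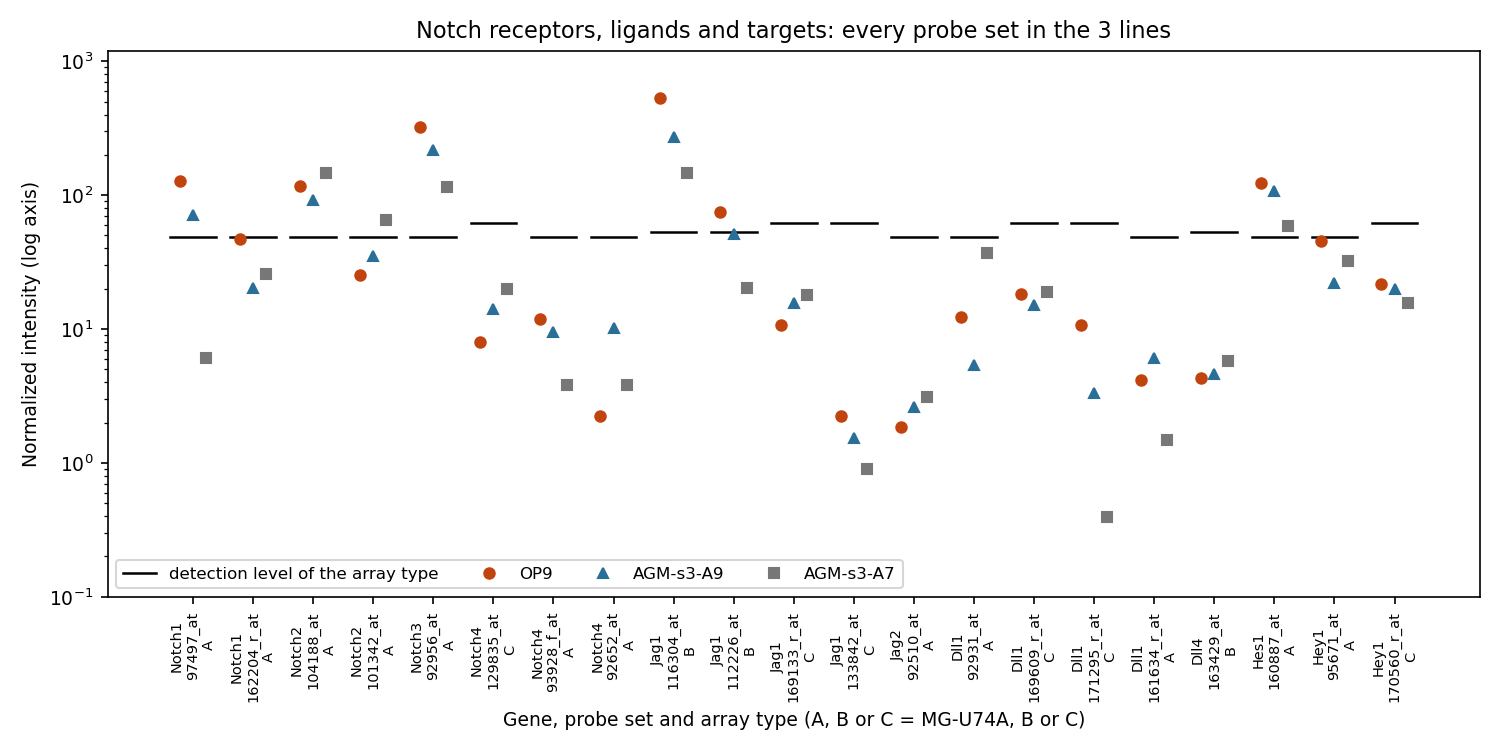
Normalized intensity (log axis) of all 21 member probe sets in OP9 (circles), AGM-s3-A9 (triangles) and AGM-s3-A7 (squares), 1 array per point. Black bars mark the detection level of the array type; the probe sets of Notch3, Hes1 and 1 probe set each of Notch2 and Jag1 lie above it in all 3 lines.

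The promoters of the receptors and the ligand that were at least 2-fold higher for OP9 over AGM-s3-A7 are shown next, to give the DNA around their start sites. RefSeq windows of GRCm38.p6, 250 bases before to 50 after a gene's start, matched 8 of the 10 genes in 9 windows (not Hes1 and Hey1). Those of Notch1 (chr2:26503773-26504072, minus strand), Notch3 (chr17:32166841-32167140, minus strand) and Jag1 (chr2:137116471-137116770, minus strand) are printed 5′ to 3′, with the GC box GGGCGG, on either strand, in capitals.
Notch1: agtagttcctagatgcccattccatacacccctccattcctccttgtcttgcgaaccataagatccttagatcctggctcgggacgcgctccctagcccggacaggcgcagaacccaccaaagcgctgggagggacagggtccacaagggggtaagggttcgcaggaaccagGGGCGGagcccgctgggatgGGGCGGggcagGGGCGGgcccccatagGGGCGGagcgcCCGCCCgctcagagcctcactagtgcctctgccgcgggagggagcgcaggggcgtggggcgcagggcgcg
Notch3: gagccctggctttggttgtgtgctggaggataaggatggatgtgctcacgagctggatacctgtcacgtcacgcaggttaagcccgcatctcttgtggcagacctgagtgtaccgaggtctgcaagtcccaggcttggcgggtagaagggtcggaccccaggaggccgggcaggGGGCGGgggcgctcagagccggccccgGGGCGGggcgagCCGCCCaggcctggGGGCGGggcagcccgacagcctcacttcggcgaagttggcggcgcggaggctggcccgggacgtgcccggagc
Jag1: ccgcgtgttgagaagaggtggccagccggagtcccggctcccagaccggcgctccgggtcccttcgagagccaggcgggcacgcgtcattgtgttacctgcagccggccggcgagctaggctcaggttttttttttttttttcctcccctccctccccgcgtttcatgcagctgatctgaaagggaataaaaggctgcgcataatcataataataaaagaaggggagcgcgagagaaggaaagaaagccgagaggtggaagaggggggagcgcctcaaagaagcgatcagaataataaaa

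The Notch1 window holds 5 GC boxes and the Notch3 window 4, while the Jag1 window holds 0. A GC box occurs in 5 of the 9 member windows and in 35.9% of 32544 distinct promoter windows of 300 bases. Both receptor windows are rich in G and C (68.3% for Notch1 and 70.0% for Notch3), against 55.7% for Jag1 and a median of 53.0% over all windows. The RBPJ core TGGGAA, searched on both strands, was in 0 of the 9 windows, and so was GTGGGAA, which contains it; 25.4% and 6.38% of all windows hold them. The E-box CACGTG, a palindrome that HES and HEY proteins can bind, was likewise in 0 of the 9 windows and in 7.17% of all. These matches describe the letters in the windows only.

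Among the receptors, Notch3, which is best known from vascular mural cells, had a normalized intensity of 325 in OP9, 216 in AGM-s3-A9 and 116 in AGM-s3-A7. Both supportive lines thus read above AGM-s3-A7, and all 3 values were well clear of the detection level. The fold was 2.81 for OP9 over AGM-s3-A7 (log2 1.49), 1.86 for AGM-s3-A9 over AGM-s3-A7 (log2 0.90) and 1.51 for OP9 over AGM-s3-A9 (log2 0.59). All 3 differences are larger than the SD between probe sets. Notch3 was read on a single probe set, without a second to set beside it. With values as deposited, the difference between OP9 and AGM-s3-A9 was -0.04 on the log2 scale. Without scaling the median of all measured probe sets of MG-U74A was itself -0.59 for OP9 over AGM-s3-A9 and 0.69 for AGM-s3-A9 over AGM-s3-A7. The probe sets of Notch1, Notch2 and Hes1, below, are on the same array type. Of 8 mural markers, 3 were above the level in OP9, 4 in AGM-s3-A9 and 3 in AGM-s3-A7, with summed intensities of 1207 in OP9, 5318 in AGM-s3-A9 and 5339 in AGM-s3-A7. Acta2 read 581 in OP9, 2684 in AGM-s3-A9 and 2664 in AGM-s3-A7. Tagln read 490 in OP9, 1877 in AGM-s3-A9 and 1861 in AGM-s3-A7. Cnn1 read 3.23 in OP9, below the level, 599 in AGM-s3-A9 and 700 in AGM-s3-A7. Myh11 read 61.3 in OP9, 71.0 in AGM-s3-A9 and 49.3 in AGM-s3-A7, the last below the level. Rgs5, Des, Mcam and Cspg4 were below it in all lines. The part of mural-type cells in the Notch3 values was not tested.

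Notch1, the receptor required for definitive hematopoiesis, had 1 probe set (97497_at) at 129 in OP9, 70.6 in AGM-s3-A9 and 6.08 in AGM-s3-A7. Only AGM-s3-A7 was below the detection level, so the probe set counts as measured through the supportive lines alone. Over that level Notch1 was at least 2.63-fold higher in OP9, and the bound for AGM-s3-A9 was 1.44-fold. It was 1.82-fold higher in OP9 than AGM-s3-A9 (log2 0.87), against a log2 ratio of 0.25 with values as deposited. The second Notch1 probe set (162204_r_at), whose suffix marks a relaxed probe design, stayed below the level in all lines, at 47.1 in OP9, 20.2 in AGM-s3-A9 and 25.6 in AGM-s3-A7. It does not repeat the order that the first gave for AGM-s3-A9 and AGM-s3-A7. With the detection level raised 1.5 times the bound for OP9 over AGM-s3-A7 was 0.81 on the log2 scale, below 2-fold.

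Notch2, a widely expressed receptor, read 117 in OP9, 91.6 in AGM-s3-A9 and 147 in AGM-s3-A7 on its brighter probe set (104188_at). AGM-s3-A7 was the highest of the 3, by 1.25-fold over OP9 and 1.61-fold over AGM-s3-A9; with values as deposited the log2 ratio of AGM-s3-A9 over AGM-s3-A7 was 0.04 in place of -0.68. The other probe set (101342_at) read 25.4 in OP9, 34.9 in AGM-s3-A9 and 65.2 in AGM-s3-A7 and was above the level in AGM-s3-A7 alone, at least 1.33-fold higher there than in either supportive line. The measured ratios of the brighter Notch2 probe set were below 2-fold in all 3 pairs, and the other gives lower bounds only. Notch4, a receptor of endothelial cells, had 3 probe sets, all below the level, with values between 2.24 and 11.97 in OP9, 9.46 and 14.01 in AGM-s3-A9, and 3.84 and 19.9 in AGM-s3-A7.

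Among the ligands, Jag1, which encodes Jagged-1, had the widest difference of all members measured in both lines. Its brightest probe set (116304_at) read 536 in OP9, 274 in AGM-s3-A9 and 146 in AGM-s3-A7. OP9 was the highest and AGM-s3-A7 the lowest, and all 3 lay above the level. Jag1 was 3.67-fold higher in OP9 than AGM-s3-A7 (log2 1.88), 1.87-fold higher in AGM-s3-A9 than AGM-s3-A7 (log2 0.91) and 1.96-fold higher in OP9 than AGM-s3-A9 (log2 0.97). With values as deposited the log2 ratio was 0.56 for AGM-s3-A9 over AGM-s3-A7 and 1.49 for OP9 over AGM-s3-A9, past 2-fold. Without scaling the median of all measured probe sets of MG-U74B was itself -0.41 in the first of these pairs and 0.67 in the second. Another probe set of MG-U74B (112226_at) read 74.6 in OP9, 51.6 in AGM-s3-A9 and 20.4 in AGM-s3-A7, the same order, but exceeded the level in OP9 alone. It gave a bound of 1.41-fold for OP9 over each AGM line. The other 2 Jag1 probe sets, on MG-U74C, were below the level in all lines, at 10.7 and 2.26 in OP9, 15.8 and 1.54 in AGM-s3-A9, and 18.0 and 0.903 in AGM-s3-A7.

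The remaining ligands were not measured above the level in any line. Jag2, which encodes Jagged-2, read 1.84 in OP9, 2.61 in AGM-s3-A9 and 3.11 in AGM-s3-A7. Dll4, the endothelial Delta-like ligand gene, read 4.30 in OP9, 4.59 in AGM-s3-A9 and 5.73 in AGM-s3-A7. The 4 probe sets of Dll1, the ligand gene used in engineered OP9 cells, read between 4.15 and 18.4 in OP9, between 3.30 and 15.1 in AGM-s3-A9 and between 0.397 and 36.8 in AGM-s3-A7. The highest single Dll1 reading, 36.8 in AGM-s3-A7 on 92931_at, was still below the level of 49.0. No fold is given for these genes, since both lines of every pair lie at or below the level.

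Of the target genes, Hes1, a repressor induced by Notch in many cell types, read 123 in OP9, 108 in AGM-s3-A9 and 58.8 in AGM-s3-A7 on its single probe set. The supportive lines lay close together and above AGM-s3-A7, whose value was only a little over the level of 49.0. Hes1 was 2.09-fold higher in OP9 (log2 1.06) and 1.84-fold higher in AGM-s3-A9 (log2 0.88) than in AGM-s3-A7. The fold between OP9 and AGM-s3-A9 was 1.14 (log2 0.18), below the SD between probe sets, and with values as deposited it was -0.48 on the log2 scale. With the detection level raised 1.5 times Hes1 no longer reached 2-fold in OP9 over AGM-s3-A7 (log2 0.74). Hey1, a related repressor gene, was below the level on both probe sets, at 45.7 and 21.9 in OP9, 22.2 and 19.8 in AGM-s3-A9, and 32.3 and 15.7 in AGM-s3-A7. Its brighter probe set came nearest to the level in OP9.

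Set against all probe sets, 4 of the 7 member probe sets measured for OP9 over AGM-s3-A7 were 2-fold or more higher, where 4.77% of 13467 probe sets were, and 0 were at least 2-fold lower, where 5.52% were. A ratio as high as that of Jag1 was found in 0.713% of all measured probe sets, as high as that of Notch3 in 1.63%, as high as the bound of Notch1 in 2.03% and as high as that of Hes1 in 3.99%. The count of 4 was 2, of 5 then measured, with the detection level raised 1.5 times. For AGM-s3-A9 over AGM-s3-A7, 0 of 6 member probe sets were at least 2-fold higher, against 2.88% of 13139, and 0 were at least 2-fold lower, against 2.18%. The ratios of Jag1, Notch3 and Hes1 in that pair, just under 2-fold, were reached by 3.75%, 3.84% and 4.04% of all. With values as deposited 2 members, Notch3 (log2 1.62) and Hes1 (log2 1.58), passed 2-fold in AGM-s3-A9 over AGM-s3-A7; without scaling the median of all probe sets of MG-U74A was itself shifted by 0.69. For OP9 over AGM-s3-A9, 0 of 6 were at least 2-fold higher, against 4.63% of 13443, and 0 were at least 2-fold lower, against 5.96%. The AGM-s3-A7 arrays are shared by both comparisons with that line, so 1 reading there enters both. Probe sets measured only through the line in which they are high, such as those of Notch1, had to differ, and bounds were counted at the bound, so these counts are a description and no support.

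**Figure D2:**
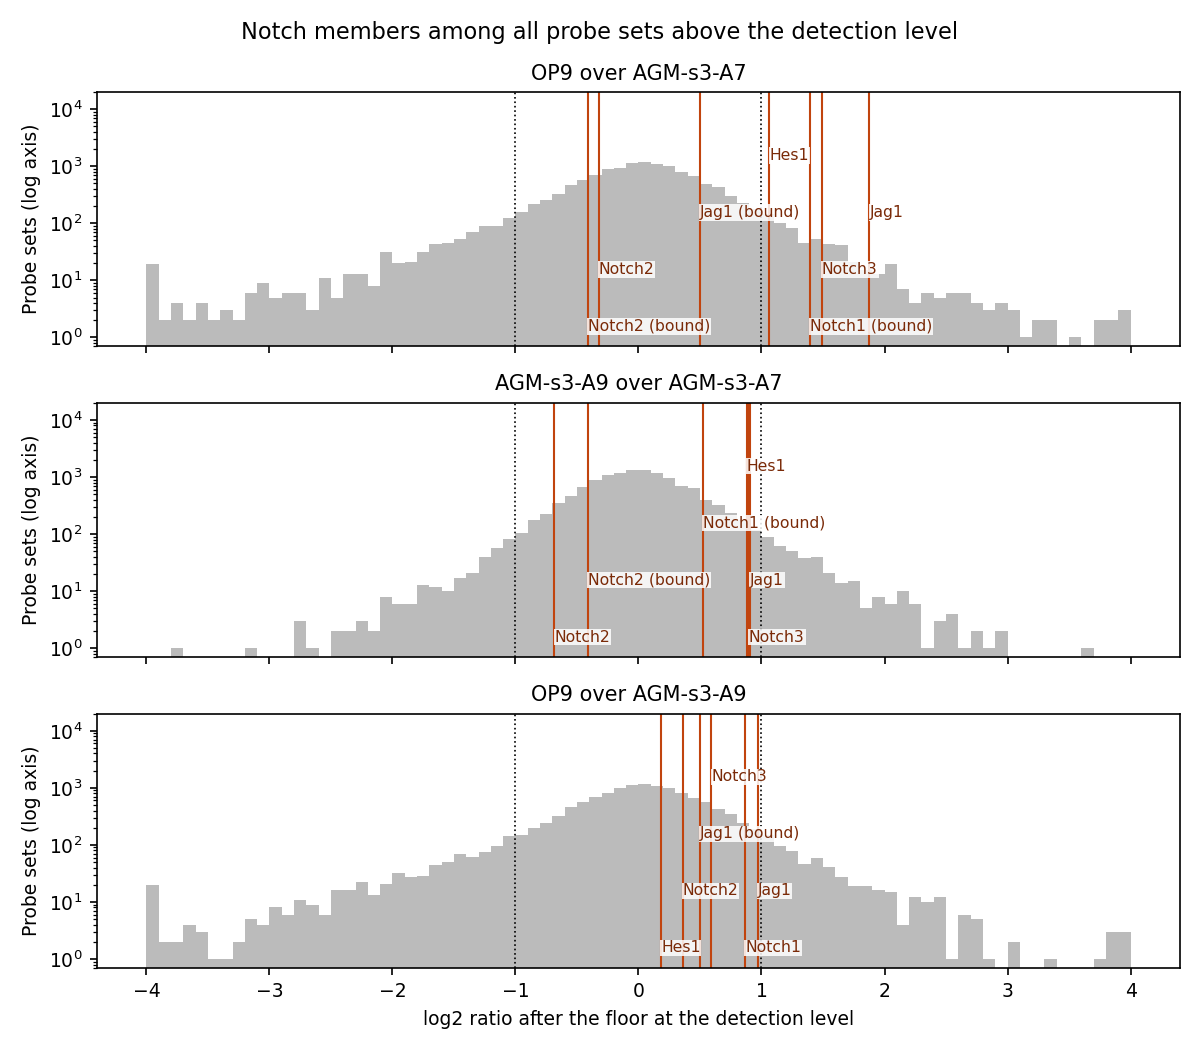
Histograms of the log2 ratio, after the floor at the detection level, of all probe sets above that level in at least 1 line of the pair (vertical log axis; values beyond 4 in size are in the end bins), with each measured member as a line. Dotted lines mark 2-fold; for OP9 over AGM-s3-A7 Hes1, Notch1, Notch3 and Jag1 lie past it, and in the other pairs 0 members do.

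In GRCm38.p6 Notch1 and Jag1 lie on chromosome 2, Notch3 on chromosome 17 and Hes1 on chromosome 16. The median log2 ratio for OP9 over AGM-s3-A7 was 0.07 over 696 genes of chromosome 2, 0.08 over 451 genes of chromosome 17 and 0.08 over 279 genes of chromosome 16. For AGM-s3-A9 over AGM-s3-A7 it was 0.24 over 709 genes of chromosome 2, 0.03 over 453 genes of chromosome 17 and -0.06 over 267 genes of chromosome 16. The part of chromosome-wide shifts in the member ratios was not tested.

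Genes with the most similar pattern over the 3 lines were found by the distance between log2 ratios against AGM-s3-A7, among probe sets of the same array type above the level in every line. Those nearest to Notch3 were Lmo4, Hk2 and Adam15, at distances of 0.07 to 0.11. Those nearest to Hes1 were Slbp, Emc6 and Tsc22d1, within 0.05. Those nearest to Jag1 were 1700123O20Rik, Mrps6 and Nolc1, at 0.09 to 0.20. None are given for Notch1, whose value in AGM-s3-A7 is not above the detection level. The distances rest on 3 lines, and the names are a description.

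Beyond the 10 members, 68 other genes of the pathway had a probe set with 1 symbol, and 51 of them were above the level in at least 1 line on their brightest probe set. For OP9 over AGM-s3-A7, 3 of 50 were 2-fold or more higher and 3 lower, with a median log2 ratio of 0.13. For AGM-s3-A9 over AGM-s3-A7 these were 2 and 4 of 49, with a median of -0.05, and 7 and 2 with values as deposited. For OP9 over AGM-s3-A9 they were 5 and 4 of 51, with a median of 0.13. Over all genes, each on its brightest probe set, 5.14% passed 2-fold upward and 5.98% downward for OP9 over AGM-s3-A7. For AGM-s3-A9 over AGM-s3-A7 3.08% passed upward and 2.28% downward, and for OP9 over AGM-s3-A9 5.06% and 6.58%.

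Of 9 genes for receptor processing 6 were measured in each pair, and 0 reached 2-fold on the brightest probe set. Of 5 for receptor glycosylation 3 were measured and 0 did. Against the shares over all genes given above, so few genes do not set these groups apart. Adam10, which encodes the protease of the first activating cut, read 155 in OP9, 221 in AGM-s3-A9 and 266 in AGM-s3-A7. A second Adam10 probe set read 43.5 in OP9, 84.7 in AGM-s3-A9 and 97.6 in AGM-s3-A7. Its OP9 value is below the level, so its ratios with OP9 are bounds only. Ncstn, encoding the gamma-secretase subunit nicastrin, read 209 in OP9, 155 in AGM-s3-A9 and 124 in AGM-s3-A7. Adam17, another sheddase gene, was below the level at 23.1 in OP9, 15.98 in AGM-s3-A9 and 9.56 in AGM-s3-A7. Of the glycosylation genes, Pofut1, encoding the O-fucosyltransferase of Notch, read 127 in OP9, 169 in AGM-s3-A9 and 105 in AGM-s3-A7. Lfng, the Lunatic fringe gene that modifies ligand preference, was below the level at 7.76 in OP9, 37.3 in AGM-s3-A9 and 44.4 in AGM-s3-A7.

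In the nuclear complex, Rbpj read 865 in OP9, 427 in AGM-s3-A9 and 580 in AGM-s3-A7 on its brighter probe set, and 310 in OP9, 152 in AGM-s3-A9 and 201 in AGM-s3-A7 on the other, which is on another array type. Both probe sets were highest in OP9 and lowest in AGM-s3-A9. On the brighter one Rbpj was 2.02-fold higher in OP9 than AGM-s3-A9, and the second probe set also passed 2-fold. Against AGM-s3-A7 it was 1.49-fold higher in OP9 and 1.36-fold lower in AGM-s3-A9. Crebbp, a histone acetyltransferase gene, was 2.09-fold higher in OP9 than AGM-s3-A9 on the brightest of 5 probe sets, while 0 of the 3 others measured reached 2-fold.

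Among ligand-like proteins, Dlk1, a Delta-like protein without the domain that classical ligands use to bind the receptor, read 1934 in OP9, 230 in AGM-s3-A9 and 467 in AGM-s3-A7. It was 8.42-fold higher in OP9 than AGM-s3-A9, and its 2 other probe sets were below the level in every line. Mfap5, encoding a microfibril protein reported to bind Jagged-1, read 29.1 in OP9, 202 in AGM-s3-A9 and 1077 in AGM-s3-A7. This order is opposite to that of Jag1: Mfap5 was at least 21.97-fold lower in OP9 and 5.34-fold lower in AGM-s3-A9 than AGM-s3-A7, and a second probe set was also at least 2-fold lower in both. Ccn3, encoding a matricellular protein reported to bind Notch1, read 5.84 in OP9, 1622 in AGM-s3-A9 and 668 in AGM-s3-A7. It was at least 13.6-fold lower in OP9 and 2.43-fold higher in AGM-s3-A9 than AGM-s3-A7.

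Of regulators, Dtx4, a Deltex ubiquitin ligase gene, read 39.6 in OP9, 185 in AGM-s3-A9 and 205 in AGM-s3-A7, and was at least 3.87-fold lower in OP9 than AGM-s3-A7; its second probe set did not reach 2-fold against the level. Mib1, the gene for a ligase that sends ligands into endocytosis, read 205 in OP9, 130 in AGM-s3-A9 and 284 in AGM-s3-A7, that is 2.18-fold lower in AGM-s3-A9 than AGM-s3-A7. Of the co-repressor genes, Hdac1 was 2.31-fold higher in AGM-s3-A9 than AGM-s3-A7. Tle2 was 2.02-fold lower in OP9 than AGM-s3-A9 on its brighter probe set. The other Tle2 probe set was also at least 2-fold lower in that pair, with a value in OP9 not above the level, and it passed 2-fold upward for AGM-s3-A9 over AGM-s3-A7, where the brighter one gave 1.38-fold.

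Of the other HES and HEY family genes, Hes6 read 76.6 in OP9, 109 in AGM-s3-A9 and 108 in AGM-s3-A7 on its brighter probe set. The other Hes6 probe set was below the level in all lines, at 45.7 in OP9, 20.8 in AGM-s3-A9 and 34.8 in AGM-s3-A7. It does not repeat that order. Hes2, Hes3 and Heyl were below the level in all lines, and 1 of 4 Hes5 probe sets was above it in any line. That probe set, on MG-U74C and with a suffix, read 94.6 in OP9, 59.8 in AGM-s3-A9 and 63.7 in AGM-s3-A7. Against the level of 61.6 it was above in OP9, only a little above in AGM-s3-A7 and below in AGM-s3-A9. Among genes reported as Notch targets in some cells and also driven by other signals, the cyclin gene Ccnd1 read 871 in OP9, 396 in AGM-s3-A9 and 279 in AGM-s3-A7. All 3 Ccnd1 probe sets were at least 2-fold higher in OP9 than AGM-s3-A7. Id1, an inhibitor of differentiation best known as a BMP target, read 502 in OP9, 106 in AGM-s3-A9 and 60.8 in AGM-s3-A7, 8.24-fold higher in OP9 than AGM-s3-A7. Myc read 169 in OP9, 85.5 in AGM-s3-A9 and 177 in AGM-s3-A7, 2.07-fold lower in AGM-s3-A9 than AGM-s3-A7.

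**Figure D3:**
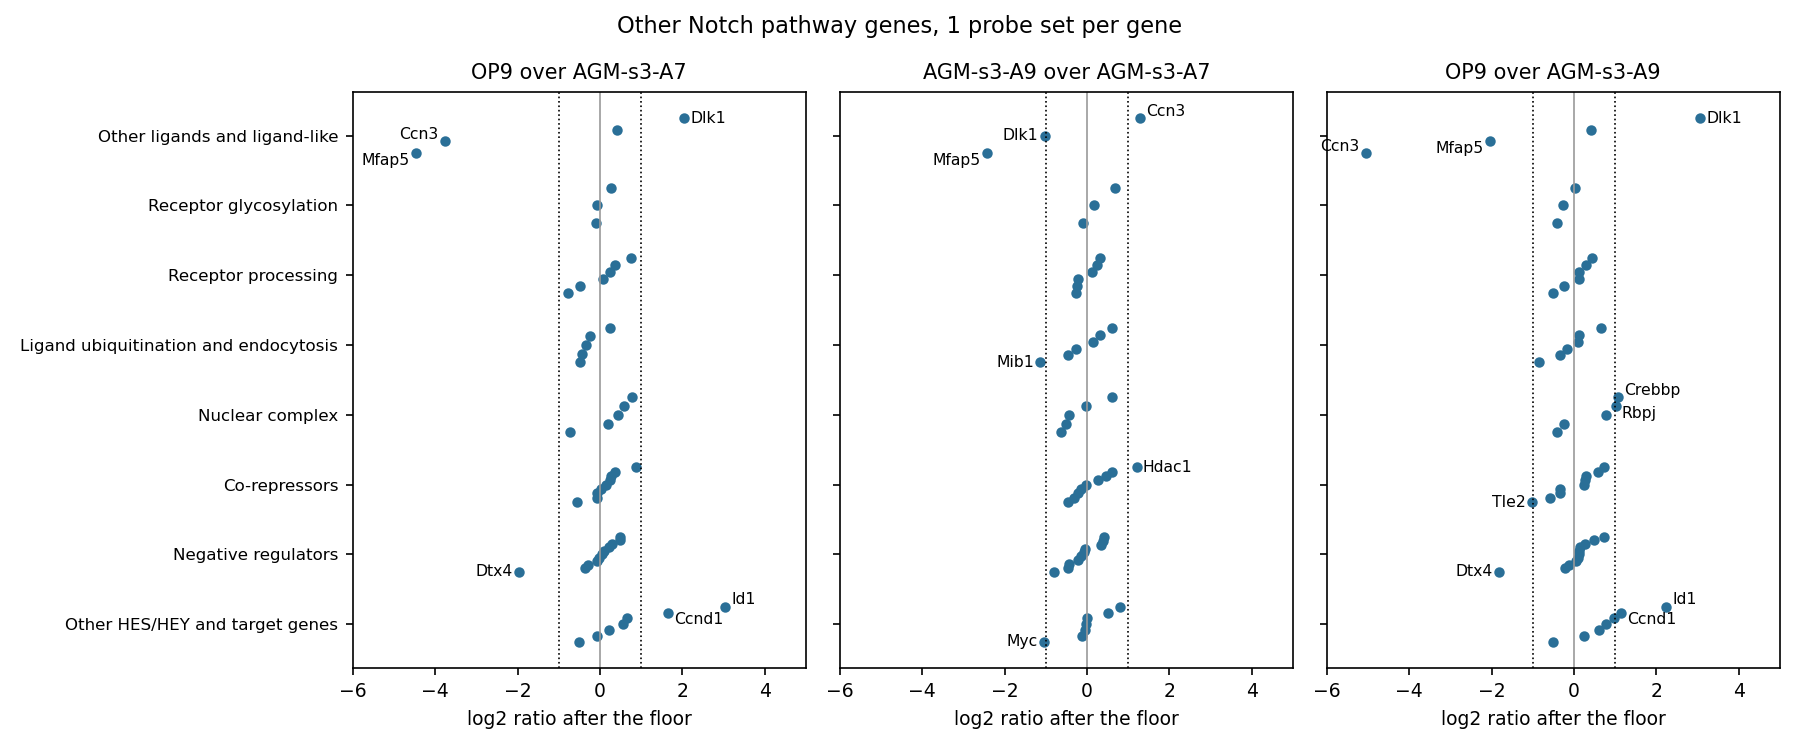
Log2 ratio after the floor (horizontal axis) of each other Notch pathway gene above the detection level in at least 1 line of the pair, by role, 1 point per gene on its brightest probe set. Dotted lines mark 2-fold and genes past it are named. Dlk1, Ccn3 and Mfap5 lie farthest out, with Id1. The few measured receptor processing and glycosylation genes lie within 2-fold on the probe set shown, as do most genes of the arrays.

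The ratios were also taken under other scalings, detection levels and probe set choices. Notch3 and Jag1 were at least 2-fold higher in OP9 than AGM-s3-A7 under each of 8 alternatives. Log2 ratios ran from 1.49 to 1.59 for Notch3 and from 1.19 to 2.05 for Jag1. Notch1 and Hes1 were at least 2-fold higher in that pair under 7 of 8 each. Not every alternative could change a ratio. Changing or dropping the floor left Notch3 at 1.49 and Jag1 at 1.88, since both lines lay above every level tried. Leaving out probe sets with a suffix changed neither. Only the scaling could move Notch3, and for Jag1 also the way its probe sets were combined.

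**Figure D4:**
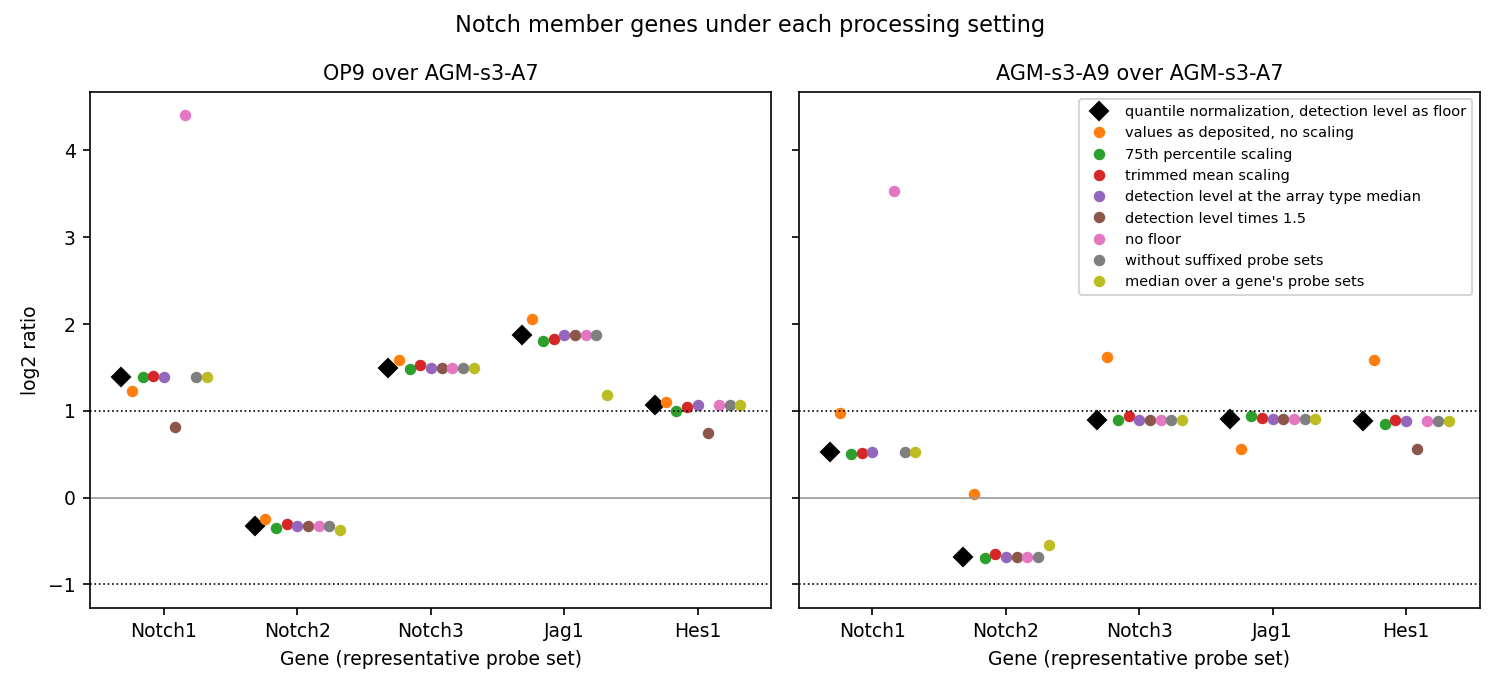
Log2 ratio of the representative probe set (the one with the highest mean intensity) of the 5 measured member genes over AGM-s3-A7 under each processing setting, with the main setting as a black diamond. The point far above the others for Notch1 is the ratio without a floor, taken against 6.08 in AGM-s3-A7. Notch3 and Jag1 in OP9 stay above the dotted 2-fold line throughout, though several settings could not change their ratios.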

How the data were processed

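Total RNA of 3 stromal lines was labelled as biotinylated cRNA from 6 ug and hybridised to Affymetrix arrays, per the labels' protocols. The authors deposited 1 linear intensity per probe set and array, in 3 tables of 36899 probe sets in all, 198 of them controls; for the software, background handling, probe summary and scaling, each was not given in the sources used here. Gene names come from the platform annotation (29131 probe sets with 1 symbol, 724 with several, not used, and 6846 with none), and the identifiers of all 10 members matched the same symbols in the RefSeq table of GRCm38.p6.

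The deposited intensities were quantile-normalized on the log2 scale within an array type, which removes any general shift between lines. Ratios were formed after setting values at or below the detection level to it, and counted at 2-fold. No test was run, since there is 1 array per line and type. The ratio step was checked on simulated data, with changes well past 2-fold put into probe sets above the level in copies of 1 array. That check does not cover ratios near 2-fold or values near the detection level. The brightest probe set represents a gene. Other pathway genes are named when at least 2-fold apart in any pair (up to 14, by size), with Dlk1, Rbpj, Adam10, Adam17 and Lfng always; 1 item of the rule is not reported here, and further genes were named after their values were seen. The members and lists were chosen with earlier results of these data known. Python 3.11.15, numpy 2.4.6, pandas 2.3.3 and matplotlib 3.10.9 were used.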

Additional observations from a re-analysis of the deposited data

How the results depend on the processing

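Counts of members and of other pathway genes moved mainly with the floor, the threshold and the scaling. Without a floor, where values below the detection level enter, 9 member probe sets passed 2-fold upward and 3 downward for OP9 over AGM-s3-A7, 6 higher and 1 lower for AGM-s3-A9 over AGM-s3-A7, and 4 higher and 1 lower for OP9 over AGM-s3-A9. Of the other pathway genes 7 were then higher and 5 lower for OP9 over AGM-s3-A7, 4 higher for AGM-s3-A9 over AGM-s3-A7, and 9 higher and 8 lower for OP9 over AGM-s3-A9. At a threshold of 1.5-fold 3 members were higher and 1 lower for AGM-s3-A9 over AGM-s3-A7 and 3 higher for OP9 over AGM-s3-A9; of the other genes 7 were higher and 5 lower for OP9 over AGM-s3-A7, 7 higher for AGM-s3-A9 over AGM-s3-A7 and 13 higher for OP9 over AGM-s3-A9. As deposited, 2 members were higher for AGM-s3-A9 over AGM-s3-A7 and 1 for OP9 over AGM-s3-A9; of the other genes 7 were higher and 2 lower for AGM-s3-A9 over AGM-s3-A7, and 8 lower for OP9 over AGM-s3-A9. With 1.5 times the detection level 2 of 5 member probe sets were higher for OP9 over AGM-s3-A7. Without a floor all 21 member probe sets and 68 other genes enter every pair. For control probe sets below 32 the SD of the log2 ratio was 1.08 to 1.13, so a 2-fold ratio lies within that SD there. As deposited 6 member probe sets were measured in each of the 2 pairs named. The other genes were then 49 for AGM-s3-A9 over AGM-s3-A7 and 53 for OP9 over AGM-s3-A9. At 1.5-fold the numbers measured do not change. The share of all probe sets was not taken under these settings, so these counts have no background beside them. The more inclusive floor and threshold count more by construction; for the scaling the cause was not tested. The other 72 counts stayed within 1.5 times. Of the member gene ratios 103 moved by less than the SD between probe sets and 16 by more. Many of the 103 did not move at all, because the setting did not touch their values. With values as deposited, all measured member genes moved by more than that SD in both pairs that include AGM-s3-A9. The median of all measured probe sets was then itself 0.69 on MG-U74A and -0.41 on MG-U74B for AGM-s3-A9 over AGM-s3-A7. For OP9 over AGM-s3-A9 it was -0.59 on MG-U74A and 0.67 on MG-U74B. With 1 array per line, leaving one out was not possible. No paired analysis was possible because each line has 1 array per type.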
